A study of Homo sapiens with 10 samples.

Results

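Transcripts of 10 genes of the epithelial cell junction were followed in A549 and H1650, human cell lines of non-small cell lung cancer: the claudins CLDN1, CLDN2, CLDN3, CLDN4 and CLDN7, occludin (OCLN), EPCAM, RAB25, ESRP1 and GRHL2. They were taken by symbol from the 19775 genes of the platform's annotation, and each was read from the probe set whose log2 signal was highest on average. H1650 cells carry a mutant EGFR, per the labels. Cells of each line received a control siRNA and were left unstimulated or given nicotine or EGF, or received an siRNA against ID1 and were given nicotine or EGF, which makes 5 conditions with n = 1 array each. All cells had been kept without serum for 48 h, and the stimulated ones then received 1 µM nicotine or 100 ng/ml EGF for 18 h. The labels do not say whether arrays came from separate cultures, and no condition has replicates. P-values and standard errors (SE) therefore measure only how far a line difference varied over the conditions, or a stimulus effect between the lines. For siRNA effects they measure how far the effect differed between nicotine and EGF, pooled over both lines. For EGF against nicotine within a line the same pooled spread was used. Such a spread may be technical. ID1 siRNA was never combined with the absence of a stimulus.

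Tight junctions seal the space between neighbouring epithelial cells. Claudins and occludin are 4-pass membrane proteins of that seal, and claudins differ in whether they tighten it or form pores for ions. EPCAM is an adhesion protein of simple epithelia that binds CLDN7, RAB25 is a small GTPase of apical recycling endosomes, ESRP1 is an epithelial splicing regulator, and GRHL2 is a transcription factor that activates junction genes, claudins among them. Transcription repressors such as ZEB1 and SNAI1 switch many of these genes off when epithelial cells become mesenchymal. ID1 binds the basic helix-loop-helix E proteins (TCF3, TCF4, TCF12) and keeps them from DNA.

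The E protein site on DNA is the E-box CANNTG, and its form CACCTG, which reads CAGGTG on the other strand, is also the site of ZEB and Snail repressors. RefSeq promoter windows (GRCh38.p14, 250 bases before a transcription start to 50 bases after it) were used for 7 of the 10 genes, 10 windows in all. ESRP1 and GRHL2 were left out of this search, and no window was used for EPCAM. At least 1 CACCTG on either strand was in 20.6% of all 35116 windows and at least 2 were in 3.49%. The window at the downstream start of CLDN7 held 5 copies, at positions -174, -135, -20, -9 and 6 counted from the start as base 1, which only 33 windows (0.0940%) reached. The window of the other CLDN7 start held 0. RAB25 held 2 copies (-41 and 38), the 2 OCLN windows held 1 (-33) and 2 (-133 and 36), CLDN3 held 1 (37), and the windows of CLDN1, CLDN2 and CLDN4 held 0. Counting all CANNTG, of which CACCTG is one form, 68.7% of windows held at least 1, and CLDN1 held 0 and CLDN4 held 2. The Grainyhead consensus AACNNGTT was in 3.52% of all windows and in 0 of these 10. A match describes letters only, since binding was not measured. The stretches below show, in capitals and 5′ to 3′ on the gene's strand, the CLDN3 copy and those upstream of the starts of CLDN7, RAB25 and OCLN, with the copies at 6, 38 and 36 not printed, and the upstream sequences of CLDN4 and CLDN1 without a copy.
CLDN7, chr17:7262629-7262658, minus strand: cctcctCACCTGggcaaggaggggtggggg
CLDN7, chr17:7262590-7262619, minus strand: ccggttCAGGTGagtgtcccttcggtgacg
CLDN7, chr17:7262475-7262504, minus strand: tatactCAGGTGcgcccCACCTGtccgccc
RAB25, chr1:156060910-156061159, plus strand: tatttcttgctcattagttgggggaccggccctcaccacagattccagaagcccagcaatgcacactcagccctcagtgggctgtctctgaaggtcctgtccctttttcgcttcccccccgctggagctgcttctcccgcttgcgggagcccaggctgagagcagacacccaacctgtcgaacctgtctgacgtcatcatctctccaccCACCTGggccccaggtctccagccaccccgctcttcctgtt
OCLN, chr5:69492508-69492537, plus strand: gagtttCAGGTGaattggtcaccgagggag
OCLN, chr5:69492651-69492680, plus strand: acgcagCAGGTGggactcgcggcgctggcc
CLDN3, chr7:73770221-73770240, minus strand: cacaggCAGGTGcaggcgca
CLDN4, chr7:73830746-73830995, plus strand: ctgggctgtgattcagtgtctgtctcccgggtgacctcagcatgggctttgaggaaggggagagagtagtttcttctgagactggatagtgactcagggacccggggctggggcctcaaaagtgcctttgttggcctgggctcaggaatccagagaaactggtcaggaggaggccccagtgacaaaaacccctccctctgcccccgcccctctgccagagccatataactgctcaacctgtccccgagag
CLDN1, chr3:190322447-190322696, minus strand: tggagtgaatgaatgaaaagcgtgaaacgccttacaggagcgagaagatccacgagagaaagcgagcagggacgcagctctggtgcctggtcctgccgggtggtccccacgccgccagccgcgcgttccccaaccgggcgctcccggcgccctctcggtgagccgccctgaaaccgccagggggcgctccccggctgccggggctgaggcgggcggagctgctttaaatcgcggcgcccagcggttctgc

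Values are linear array signals, scaled to the same trimmed mean on each array, and array medians ran from 61.2 to 79.6. A gene is called dim in a line where its mean log2 signal there was below 6.06 (a signal of 66.7), the filter over all 10 arrays that 12514 genes passed. All 10 genes passed this filter. For 6 of them that was through 1 line alone, since CLDN4, CLDN7, RAB25, ESRP1 and GRHL2 were dim in A549 and CLDN3 was dim in H1650. The difference between lines of these 6 genes is therefore given as a lower bound, the bright line against the higher of the dim signal and the array median, and was not counted as support. Both lines carried bright keratins of simple epithelium, with lowest signals of 16740.1 for KRT7, 20209 for KRT8 and 26808 for KRT18 in A549. Of 12 markers of fibroblasts, endothelium and blood, 3 were above the array median on every A549 array (COL1A1, PECAM1 and HBB) and 4 on every H1650 array (the same genes and DCN), and the list's summed signal was 903 to 1553 in A549 and 1152 to 2007 in H1650. In ID1 itself, the siRNA target, signals in A549 were 1645 without a stimulus, 3720 and 3049 in the nicotine and EGF controls, and 1343 with ID1 siRNA under either stimulus. In H1650 they were 5029.9 without a stimulus, 4964 and 5121 in the controls, and 881 and 1031 with ID1 siRNA under nicotine and EGF. ID1 was thus 63.9% and 56.0% lower in A549 and 82.3% and 79.9% lower in H1650 than in the matched control, and the unstimulated A549 control had an ID1 signal nearer to the A549 siRNA arrays than to the stimulated controls. The siRNA sequence is not given in the sources used here.

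CLDN7, CLDN4, RAB25, ESRP1 and GRHL2 were bright in H1650 and dim in A549 under the conditions measured, while CLDN1, CLDN2 and CLDN3 were higher in A549. EPCAM and OCLN were expressed in both lines and lower in A549. In bulk RNA, fewer cells with a transcript and less transcript per cell cannot be told apart.

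**Figure D1:**
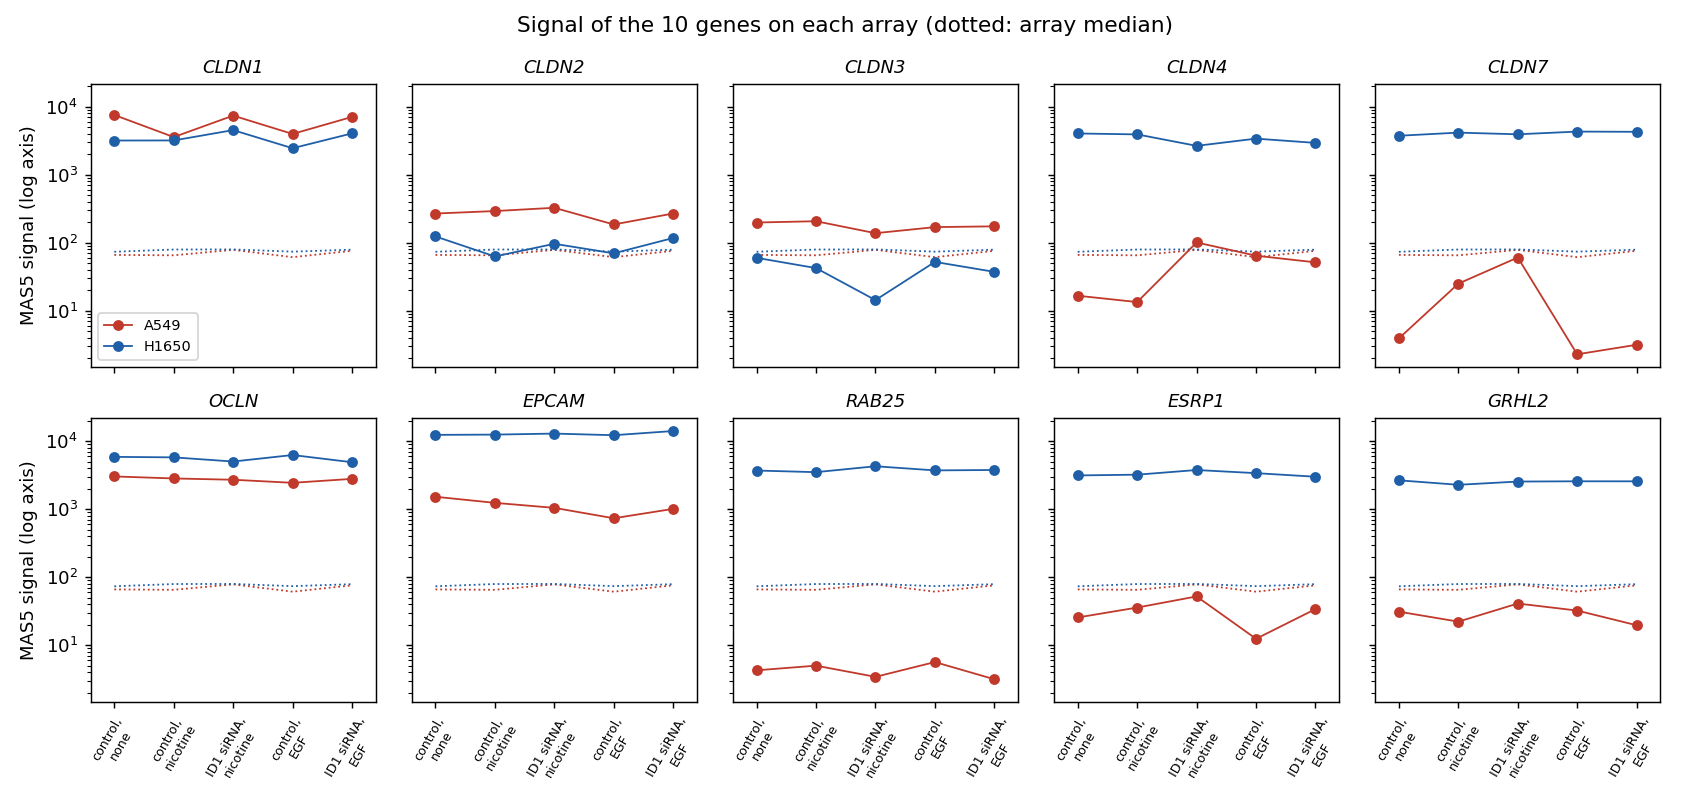
Signal of each of the 10 genes on each array (log axis), with A549 in red and H1650 in blue, 1 array per point, and the array median dotted; the lines only join the points of a cell line. RAB25, CLDN7, ESRP1 and GRHL2 lie below the array median on all 5 A549 arrays and at 2279 or more on all 5 H1650 arrays, whereas only the CLDN1 panel has overlapping lines.

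CLDN7, the claudin that binds EPCAM and also lies along the lateral membrane, gave signals in H1650 of 3728 without a stimulus, 4142 with nicotine, 3916 with nicotine and ID1 siRNA, 4291 with EGF and 4258 with EGF and ID1 siRNA. In A549 the same conditions gave 3.93, 25.0, 60.6, 2.29 and 3.16, all below the array medians. The lines did not overlap, and CLDN7 was at least 58.8-fold lower in A549.

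CLDN4, a sealing claudin, gave 4026, 3901, 2649, 3381 and 2926 in H1650 in the same order of conditions. In A549 it gave 16.6, 13.4, 101, 64.4 and 51.4, and only the nicotine array with ID1 siRNA and the EGF control were above their array medians. CLDN4 was at least 45.4-fold lower in A549. Its other probe set was below the array median on all 10 arrays and does not bear on this.

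CLDN3, a close relative of CLDN4, ran the other way. Its A549 signals were 198, 207, 138, 169 and 174 in the order above, and its H1650 signals were 59.9, 42.3, 14.3, 52.2 and 37.3, all below the array medians. CLDN3 was at least 2.28-fold higher in A549, and a second CLDN3 probe set read 146 to 229 in A549 and 1.66 to 29.5 in H1650. CLDN3 and CLDN4 are neighbours in RefSeq with 0 genes between them and 60725 bases from one gene to the other, so adjacent claudin genes were the brighter one in opposite lines. The CLDN3 probe set used is of a class that can also bind related transcripts.

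CLDN1, a barrier claudin, was the one gene of the 10 whose arrays overlapped between lines. Its signals in A549 were 7529.9 without a stimulus, 3564 with nicotine, 7367 with nicotine and ID1 siRNA, 3963 with EGF and 7047 with EGF and ID1 siRNA. In H1650 they were 3172, 3179, 4511, 2442 and 4037. At each condition the A549 array was the higher one, and CLDN1 differed by 0.72 ± 0.14 on the log2 scale (A549 minus H1650, limma SE; adjusted p = 0.00201).

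CLDN2, a claudin that forms a pore for small cations, gave 268, 291, 326, 185 and 268 in A549 and 123, 62.8, 96.3, 69.7 and 117 in H1650. All A549 arrays were above all H1650 arrays, and the 2 stimulated H1650 controls were below their array medians. The log2 difference of CLDN2 was 1.54 ± 0.21 (limma adjusted p = 0.000258).

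Occludin gave 3025, 2825, 2704, 2437 and 2784 in A549 and 5863, 5766, 5008, 6241 and 4891 in H1650. OCLN was lower on every A549 array than on any H1650 array, with a log2 difference of -1.01 ± 0.10 (limma adjusted p = 3.89e-05). The 3 other OCLN probe sets had smaller differences in the same direction, -0.61, -0.72 and -0.42.

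EPCAM gave 1520.3, 1237, 1044, 734 and 1009 in A549 and 12339, 12456, 12891, 12201 and 14054 in H1650. It was expressed in both lines and did not overlap between them. The log2 difference of EPCAM was -3.57 ± 0.15 (limma adjusted p = 3.02e-07).

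RAB25 gave 4.28, 5.01, 3.43, 5.66 and 3.16 in A549, far below every array median. Its H1650 signals were 3692, 3494, 4268, 3709 and 3762. RAB25 was at least 54.7-fold lower in A549.

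Of the regulators, ESRP1 gave 25.6, 35.8, 52.2, 12.4 and 34.0 in A549 and 3129, 3210, 3758, 3379 and 2994 in H1650. A second ESRP1 probe set read 4.05 to 8.99 in A549 and 2003 to 2365 in H1650. GRHL2 gave 31.1, 22.2, 41.0, 32.3 and 19.7 in A549 and 2652, 2279, 2543, 2566 and 2564 in H1650. ESRP1 was at least 47.5-fold and GRHL2 at least 36.4-fold lower in A549.

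**Figure D2:**
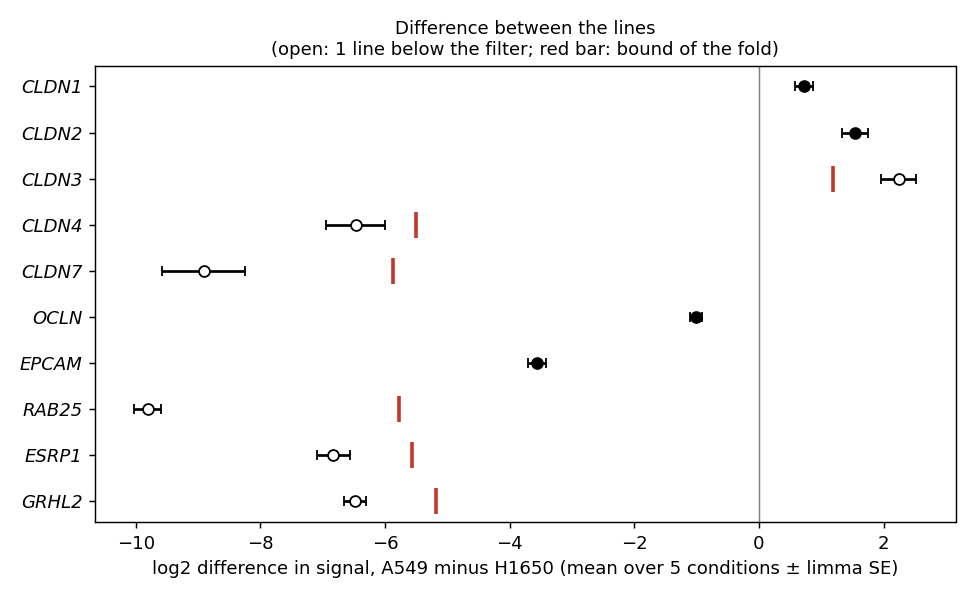
Log2 difference in signal between the lines for the 10 genes (A549 minus H1650, mean over 5 conditions, bars are limma SE). Filled points are genes above the filter in both lines, from EPCAM at -3.57 to CLDN2 at 1.54; open points had 1 dim line, and for these the red tick marks the lower bound of the fold.

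All 4 genes above the filter in both lines passed the test of the line difference, CLDN1 and CLDN2 higher and OCLN and EPCAM lower in A549. That test called 63.1% of all genes, 30.9% higher and 32.2% lower, and among the 11542 genes above the filter in both lines 30.5% and 31.2%. Every A549 array was above every H1650 array for 24.7% of all genes and below for 25.3%. With each array centred on its median, the share of line calls that were higher in A549 went from 48.9% to 59.0%. Within a group of 4, such a count has little weight.

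The adherens junction, tight junction and epithelial lists held more genes lower in A549 than higher, and the other claudins and the keratins did not. Of 14 measured adherens junction and desmosome genes 11 were lower, CDH1 (E-cadherin) by -3.37 ± 0.13, NECTIN4, a nectin that pairs cells at adherens junctions, by -2.78 ± 0.22 and PKP2 (plakophilin 2, a desmosome plaque protein) by -2.39 ± 0.14 on the log2 scale, and 1, NECTIN2, was higher by 0.64 ± 0.20. The list's median was -1.01 against -0.03 for all genes tested. Of 17 tight junction partners and polarity genes above the filter in both lines 8 were lower and 3 higher. LSR, which recruits proteins to tricellular contacts, differed by -3.21 ± 0.12 and CGN (cingulin) by -2.81 ± 0.16, while MARVELD3 was dim in A549 at 2.03 to 44.6 against 1328 to 1878 in H1650. CGNL1 (paracingulin, 1.41 ± 0.22), the scaffold MAGI3 (1.03 ± 0.18) and the polarity protein PARD3 (0.84 ± 0.11) were higher in A549. TJP1, the scaffold to which claudins and occludin bind, differed by -0.05 ± 0.12 (limma adjusted p = 0.755), with signals of 8624 to 10970 in A549 and 8558 to 12016 in H1650.

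Of the 19 tested genes of the epithelial programme 13 were above the filter in both lines, and 7 of these were lower and 3 higher in A549. The kinase MAPK13 differed by -3.97, CDS1, an enzyme of phospholipid synthesis, by -3.93 and the transcription factor OVOL1 by -3.0. MAPK13 stood near the array median in A549, at 39.2 to 89.6 against 965 to 1268 in H1650, so its difference is weakly measured. The other 6 passed the filter only through H1650 and are not counted, among them MAL2, a protein of apical transport (25.5 to 113 in A549 and 14631 to 16172 in H1650), the membrane protease ST14 (13.7 to 72.6 and 6720.0 to 8260) and GRHL1, the paralogue of GRHL2 (10.5 to 52.0 and 1958 to 2556). GRHL1 was below the array median on every A549 array, and MAL2 and ST14 on 4 of 5. EHF, an epithelial ETS factor (2.40 ± 0.39), the third Grainyhead gene GRHL3 (0.95 ± 0.22) and KLF5 (0.64 ± 0.12) were higher in A549. Of the other claudins 5 were above the filter in both lines, and CLDN15 (1.37 ± 0.24) and CLDN23 (0.59 ± 0.23, limma adjusted p = 0.0454) were higher in A549 with 0 lower. Of 4 keratins KRT8 and KRT18 were higher and KRT19 lower in A549.

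Repressors of epithelial genes and E proteins differed between the lines in both directions. ZEB1 gave 1351 to 1899 in A549 and 18.1 to 81.9 in H1650, and just 1 H1650 array was above its array median. TWIST2 was higher in A549 by 2.92 ± 0.14, and the E proteins TCF4, TCF12 and TCF3 by 2.88 ± 0.14, 1.5 ± 0.08 and 0.56 ± 0.10. In H1650 TWIST2 stood near the array median, at 73.1 to 117, so its difference is weakly measured. TWIST1 (-1.19 ± 0.12) and SNAI2 (-0.93 ± 0.28, limma adjusted p = 0.0172) were lower in A549. SNAI2 is weakly measured there, at 59.3 to 153 and above the array median on 3 of 5 arrays. SNAI1 and ZEB2 did not pass the filter, and SNAI1 read 5.53 to 56.9 in A549 and 101 to 155 in H1650. The bright ZEB1 line was thus the line with dim CLDN4, CLDN7, RAB25, ESRP1 and GRHL2, which compares a single pair of cell lines.

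**Figure D3:**
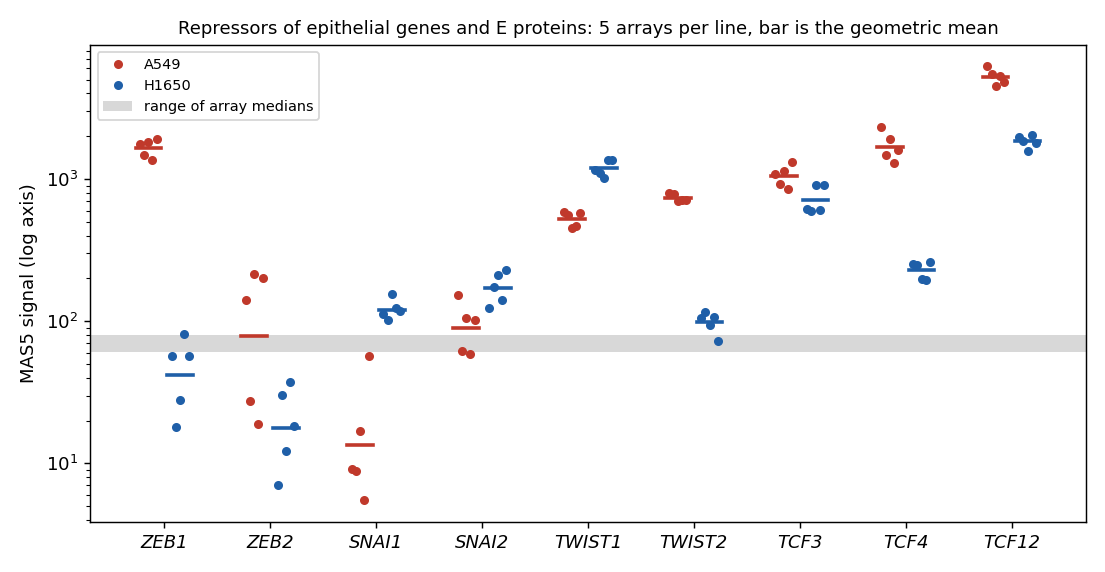
Signal of 9 repressors and E proteins (log axis), with 5 arrays per line as points, the geometric mean as a bar and the range of array medians in grey. ZEB1 lies at 1351 to 1899 in A549 and at 18.1 to 81.9 in H1650, while SNAI1, SNAI2 and TWIST1 have the higher mean in H1650.

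ID1 siRNA was compared with control siRNA within each line over its nicotine pair and its EGF pair. CLDN1 rose in both lines, and no other member that was above the filter in a line passed the test there. CLDN1 was 2.07-fold higher with ID1 siRNA under nicotine and 1.78-fold under EGF in A549. The H1650 ratios were 1.42 under nicotine and 1.65 under EGF. The log2 difference was 0.94 ± 0.11 in A549 (limma adjusted p = 0.000608) and 0.61 ± 0.11 in H1650 (limma adjusted p = 0.00914). The difference between these effects was 0.32 ± 0.15 and did not pass the test (limma adjusted p = 0.204).

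**Figure D4:**
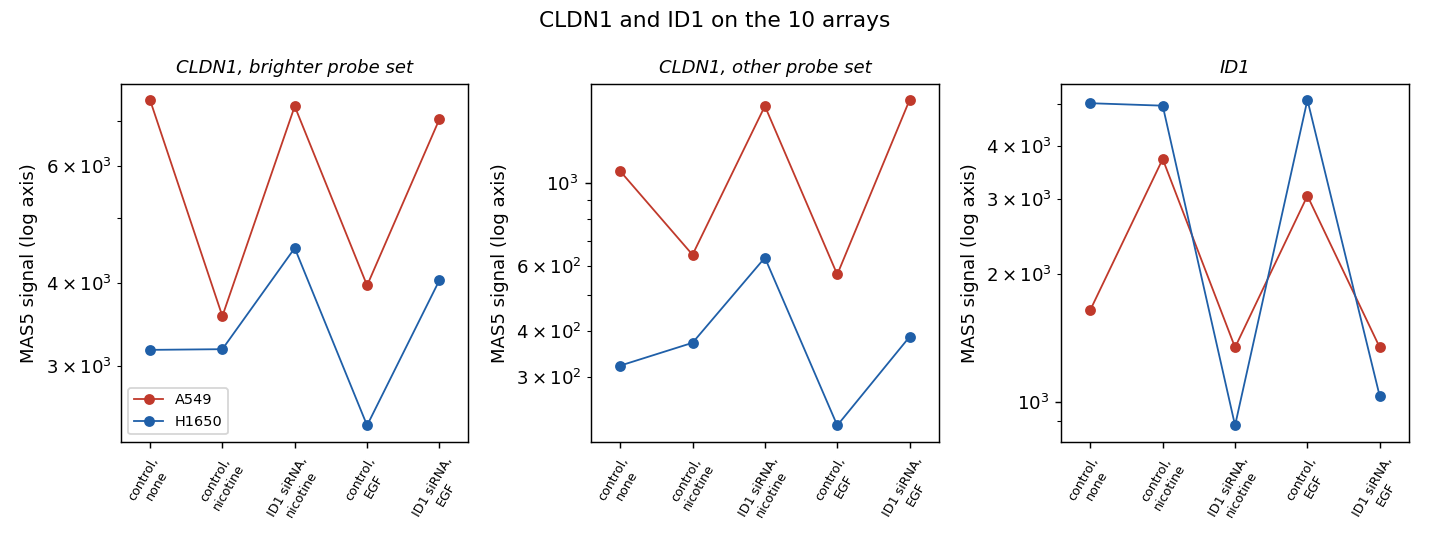
Signals of both CLDN1 probe sets and of ID1 on the 10 arrays (log axes), A549 in red and H1650 in blue, 1 array per point; the lines only join the points of a cell line. With ID1 siRNA the CLDN1 points rise and the ID1 points fall in each matched pair, and the unstimulated A549 control has a high CLDN1 (7529.9) beside a low ID1 (1645).

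A second, dimmer CLDN1 probe set moved the same way. It gave 1079.7, 642, 1618, 568 and 1681 in A549 and 322, 371, 630.1, 222 and 385 in H1650, in the order of conditions above. Its mean log2 difference between ID1 siRNA and control was 1.45 in A549 and 0.78 in H1650. CLDN1 was thus above its control in all 4 matched pairs by either probe set, as were 16% of all genes by the probe set used. By the probe set used, CLDN1 was 2-fold or more higher in the A549 nicotine pair alone, where 6.06% of all genes were that much higher, against 7.96% in the A549 EGF pair, 1.83% in the H1650 nicotine pair and 2.09% in the H1650 EGF pair.

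In A549, 1 of the 5 members above the filter there passed, and in H1650 1 of 9. Members dim in the other line were judged with a spread that includes their dim signals, as given below. The tests called 25.3% of all genes in A549 (13.8% higher and 11.4% lower) and 12.3% in H1650 (5.64% higher and 6.66% lower), so these counts are near or below the background. With each array centred on its median, the higher share of the H1650 calls went from 45.8% to 35.4%, and that of the A549 calls is given below. The CLDN1 call in H1650 is lost without the intensity trend of the fit (limma adjusted p = 0.101). It is also lost without the H1650 EGF control or the H1650 array of EGF with ID1 siRNA. The H1650 difference is then that of the nicotine pair alone, 0.50, with no H1650 spread left.

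The other members above the filter did not pass the test. EPCAM gave 0.11 ± 0.15 in A549 (limma adjusted p = 0.652) and 0.13 ± 0.15 in H1650 (0.668), its A549 nicotine pair being lower with ID1 siRNA and its A549 EGF pair 1.37-fold higher. Without either array of that nicotine pair, the A549 difference of EPCAM was that of the EGF pair alone, 0.46. No A549 spread was then left, so such a fit cannot test EPCAM in A549. OCLN gave 0.06 ± 0.11 in A549 and -0.28 ± 0.11 in H1650 (limma adjusted p = 0.698 and 0.129), and both H1650 pairs were lower with ID1 siRNA. CLDN2 gave 0.35 ± 0.28 and 0.68 ± 0.28 (limma adjusted p = 0.399 and 0.154) and was higher with ID1 siRNA in all 4 pairs, though both H1650 controls stood below the array median. In H1650, CLDN4 gave -0.38 ± 0.58, CLDN7 -0.05 ± 0.27, RAB25 0.15 ± 0.30, ESRP1 0.03 ± 0.25 and GRHL2 0.08 ± 0.34, with limma adjusted p between 0.741 and 0.963. These SE come from a spread shared with A549, where the same genes were dim, so they do not measure H1650 alone. The nicotine and EGF pairs of GRHL2 differed by 0.16 and -0.001 in H1650 and by 0.89 and -0.72 in A549. For CLDN4 they differed by -0.56 and -0.21 in H1650 and by 2.91 and -0.32 in A549. The H1650 pairs by themselves were not tested. CLDN3 gave -0.27 ± 0.44 in A549, with a spread shared with H1650, where it was dim. The test of the difference between lines called 11.9% of all genes and 0 of the 4 members above the filter in both, and 58.7% of its calls were higher in A549 as scaled and 25.6% after that centring.

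**Figure D5:**
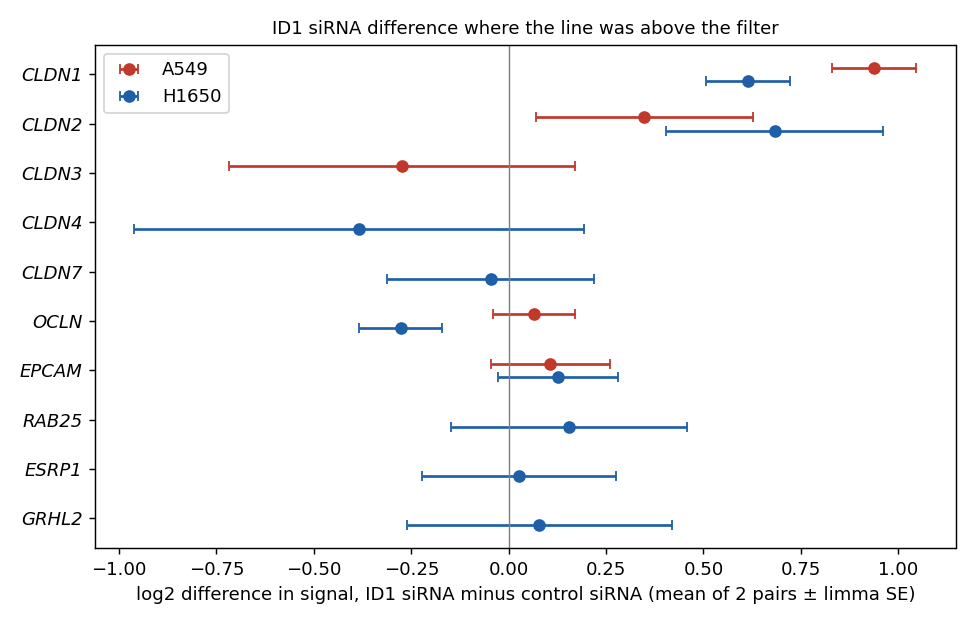
Log2 difference in signal between ID1 siRNA and control siRNA in each line (mean of 2 matched pairs, bars are limma SE), drawn where the gene was above the filter in that line. The SE of a gene uses a spread shared by both lines, also where the other line was dim. CLDN1 stands at 0.94 in A549 and 0.61 in H1650; the bars of EPCAM, CLDN7, ESRP1 and GRHL2 cross 0.

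For genes dim in A549 a fold between siRNA groups has no measured base. CLDN4 went from 13.4 to 101 under nicotine and from 64.4 to 51.4 under EGF and did not pass (limma adjusted p = 0.135). CLDN7 and ESRP1 passed the A549 test of ID1 siRNA (0.87 and 1.00 on the log2 scale, limma adjusted p = 0.0436 and 0.0203), and CLDN7 that of EGF against nicotine (-3.85, limma adjusted p = 0.00294, and -3.94 for its difference between lines, limma adjusted p = 0.0164). The CLDN7 and ESRP1 values lie at signals of 2.29 to 60.6, below the array medians, and the second ESRP1 probe set differed by -0.38, so they are not read as changes. With ID1 siRNA under nicotine, CLDN4 at 101 in A549 stood against 2649 in H1650.

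Outside the members, 6 of 14 adherens junction and desmosome genes were called with ID1 siRNA in A549, where the test called 25.3% of all genes, 13.8% higher and 11.4% lower. NECTIN4 (0.99 ± 0.20), NECTIN2 (0.70 ± 0.12) and AFDN (afadin, 0.59 ± 0.16) led 5 that rose, with CDH1 at 0.47 ± 0.13 and PKP2 at 0.48 ± 0.12, and CTNNA1 (alpha-catenin) fell by 0.63 ± 0.11. The NECTIN4 rise started near the array median, from 69.0 with nicotine and 73.6 with EGF against medians of 65.2 and 61.2. With ID1 siRNA NECTIN4 read 144 and 140, so its fold has a weakly measured base. The unstimulated A549 control read above both siRNA arrays for NECTIN4 (177) and PKP2 (975 against 784 and 849). It read below both for NECTIN2 (1344 against 1783 and 2063) and AFDN (808 against 901 and 855). For CDH1 it lay between them (1938 against 2210 and 1818). Of the 18 tight junction partners and polarity genes PARD6B rose (0.37 ± 0.11) and MARVELD2 (tricellulin) fell by 0.57 ± 0.12, 2 of 18 in all, and of the 6 claudins CLDN16 was called (1.99 ± 0.61), with an EGF control of 11.6 and otherwise 57.6 to 108. CLDN16 was dim in A549, and 0 of the 5 other claudins above the filter in both lines were called. Of the 19 epithelial programme genes 5 were called higher and 2 lower. Among the 13 above the filter in both lines these counts were 2 and 1, and the other calls are of genes dim in A549. EHF rose by 2.23 ± 0.18, from 476 to 1912 under nicotine and from 344 to 1889 under EGF, and the unstimulated A549 control read 1218. MYO5B, a motor of recycling endosomes, fell by 0.70 ± 0.15. CDS1 rose by 0.50 ± 0.13, though the unstimulated A549 control read 335 against 225 and 198 with ID1 siRNA. TMEM30B, ST14, MAL2 and GRHL1 were called at signals mostly below the array median. Of the E proteins TCF3 rose by 0.47 ± 0.13.

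These A549 counts depend on the scaling and on the trend. The A549 siRNA arrays had medians of 78.5 and 75.9 against 65.2 and 61.2 in their controls, and centring each array on its median moved the median difference of all genes by -0.29. The share of calls that were higher then went from 54.8% to 19.3%, the adherens junction list from 5 higher and 1 lower to 2 and 5, and the tight junction list from 1 and 1 to 0 and 2. CLDN1, EHF, NECTIN2, NECTIN4, CTNNA1, MARVELD2 and MYO5B kept their calls under that centring and under quantile normalization. Without the intensity trend CTNNA1 (limma adjusted p = 0.0515), MARVELD2 (0.0722) and MYO5B (0.079) lost theirs, and the adherens junction list stood at 2 higher and 0 lower and the tight junction list at 0 and 0. CDH1, PKP2, AFDN, PARD6B, TCF3 and CDS1 lost their calls after centring and also without the trend. COL1A1, one of the 12 markers of other cell types, was also called with ID1 siRNA in A549 (1.14 ± 0.23), and the list's summed signal was 1055 and 903 in the 2 stimulated A549 controls and 1505 and 1513 with ID1 siRNA, or 652 and 681 against 841 and 855 without COL1A1. None of the 12 was at 0, and the part of this in the junction results was not tested.

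In H1650, where the ID1 siRNA test called 12.3% of all genes, it called 1 of 6 other claudins, 2 of 18 tight junction, 1 of 14 adherens junction and 1 of 19 epithelial genes, which is near or below that share. CLDN12 fell by 0.90 ± 0.10, from 1714 to 873 under nicotine and from 2325 to 1309 under EGF, MARVELD2 fell by 0.60 ± 0.12, MPDZ, a multi-PDZ scaffold, by 0.70 ± 0.14, DSC2 (desmocollin 2) by 0.36 ± 0.10 and MYO5B by 0.89 ± 0.15. TCF3 rose by 0.61 ± 0.13. MARVELD2, MYO5B and TCF3 were therefore called in the same direction in both lines. Without the intensity trend 0 genes of these lists were called in H1650, where the whole test called 1 gene.

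Stimulation was compared over control siRNA arrays in a fit shared by the lines. No gene passed the test for nicotine or for EGF (0% of 12514 genes in limma, with 189 and 747 genes at an unadjusted p under 0.05). CLDN1 in A549 stood at 0.473 of the unstimulated signal with nicotine and 0.526 with EGF. In H1650 the same ratios were 1.00 and 0.770. The A549 values rest on 1 unstimulated array, the one with the low ID1 signal, and its CLDN1 signal (7529.9) was close to those of the ID1 siRNA arrays (7367 and 7047). Whether this array is what its label says could not be checked from the files, and the A549 ratios to it, those of EPCAM included, hold only for the array as labelled. EPCAM with EGF stood at 0.483 of the unstimulated signal in A549 and 0.989 in H1650. Over both lines CLDN1 gave -0.65 ± 0.22 with EGF and EPCAM -0.53 ± 0.23, both with a limma adjusted p of 0.831.

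Genes at least 2-fold lower than without a stimulus were counted. Among members above the array median on both arrays, these were CLDN1 in the A549 nicotine pair (3.44% of all genes) and EPCAM in the A549 EGF pair (5.11%). ESRP1, dim in A549, read 12.4 with EGF against 25.6 and is not read as a change. The shares are of all tested genes, those dim on these arrays included. In H1650 no member above the array median on both arrays was 2-fold lower with nicotine (0.575% of all genes) or EGF (2.09%). OCLN stayed between 0.806 and 1.06 of its unstimulated signal in all 4 pairs.

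EGF and nicotine were also set against each other within a line, over control and ID1 siRNA. The test called 0.0320% of all genes in A549 and 0.216% in H1650, and 0 of the members above the filter in that line. The difference between lines called 0.0799% of all genes. CLDN1 in H1650 gave -0.27 ± 0.11 (limma adjusted p = 0.421). EPCAM in A549 gave -0.40 ± 0.15 (limma adjusted p = 0.514), and its EGF control read 734 against 1237 for the nicotine control while the siRNA arrays read 1009 and 1044. Without either of the ID1 siRNA arrays of A549 the EPCAM difference was that of the control siRNA pair alone, -0.75. No A549 spread was then left to test it.

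Within lines the members above the filter in both did not follow one another closely. After each line's mean was subtracted, Pearson's r over the 10 arrays was 0.45 for CLDN1 with CLDN2, 0.39 for CLDN1 with EPCAM, -0.17 for CLDN1 with OCLN and 0.42 for OCLN with EPCAM. These arrays share conditions and scaling, so r is a description. The tested genes most like CLDN1 by this measure were ANTXR1 (r = 0.986), SNHG32 (0.984) and FNIP2 (0.981), for OCLN HECTD2 (0.980), MAP9 (0.974) and UBLCP1 (0.973), for EPCAM PALLD (0.95), GAREM1 (0.944) and PDCD6 (0.942), and for CLDN2 SH3PXD2A (0.936), PDLIM3 (0.933) and LPAR6 (0.885). For the 6 members dim in 1 line the measure mostly follows signals below the array median and is not given.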

How the data were processed

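Total RNA of 10 cell line samples was hybridised to Affymetrix U133 Plus 2.0 arrays. The authors deposited 1 signal intensity per probe set, made with GCOS 1.4 and MAS5 per the submitters' processing notes. The labels' protocols mention a log2 transformation that the deposited intensities do not show: they are linear with a 2% trimmed mean near 500 on each array, so log2 was taken here. Of 54675 probe sets, the 62 controls, 1801 that name several symbols and 11721 that name none were not used, which left 41091 (41037 matched by Entrez identifier) for 19775 genes. CLDN22, F11R, MAGI1, CTNND1 and ESRP2 had no probe set of their own in it and were not analysed here.

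Limma 3.58.1 in R 4.3.3 fitted 12514 genes with an intensity trend, moderated SE and Benjamini-Hochberg adjustment over all of them, with calls at adjusted p under 0.05. A model of line and condition over 10 arrays (4 residual degrees of freedom) gave the line and stimulus contrasts. The 8 stimulated arrays with the 4 matched pairs as blocks and siRNA within line (2 residual degrees of freedom) gave the others. The 10 genes, the lists and the rule for naming (up to 3 called genes per list, direction and contrast, all repressors and E proteins, and the 3 most alike genes per member) were chosen with earlier results of these data known. CDH1 and PKP2 in the siRNA comparison, TJP1, CLDN12 and others below the third place were named after their values were seen. The fits were tested on simulated data. Alternatives were 2 other scalings, adding 16 before log2, no filter or a stricter one, averaging a gene's probe sets, no trend, line as the block, each array left out, and 1.5-fold. The number of arrays limits the precision.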

Additional observations from a re-analysis of the deposited data

Results flagged for a closer look

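ID1 siRNA effects that differed between the lines by the test of the difference itself (log2 in A549 minus log2 in H1650, limma, genes above the filter in both lines) are given here. ID1 fell less in A549 than in H1650, with a difference of 1.08 (adjusted p = 0.00372). EHF differed by 2.24 ± 0.26 (adjusted p = 0.00131), rising by 2.23 in A549 and standing at -0.01 in H1650. The nectins NECTIN4 and NECTIN2 differed by 1.05 and 0.77, with A549 values of 0.99 and 0.70 and H1650 values of -0.06 and -0.08. In the stimulated A549 controls NECTIN4 stood near the array median. CLDN12 differed by 0.76, at -0.14 in A549 and -0.90 in H1650. CLDN19, CLDN23 and CGN differed by 1.58, 1.08 and 0.81, where neither line passed on its own. MPDZ differed by 0.80, from its fall in H1650, and PARD6B by 0.55. After centring of each array on its median, CGN, CLDN23, MPDZ, NECTIN4 and PARD6B were no longer called. Under quantile normalization these and CLDN19 (limma adjusted p = 0.0659) lost their calls. Without the intensity trend EHF was the one of the 9 junction and epithelial genes still called (adjusted p = 0.0329). The ID1 difference also lost its call there (limma adjusted p = 0.0793). None of the 10 main genes was among the genes called for this difference.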

How the results depend on the processing

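Each group has 1 array, so replicates could not be paired by number. The 4 pairs matched by line and stimulus were the blocks of the siRNA fit, and line alone as the block kept both CLDN1 calls. Over the alternatives run, the CLDN1 line difference lay between 0.59 and 1.10, its A549 siRNA difference between 0.65 and 1.19 (highest adjusted p = 0.0284), and those of CLDN2, OCLN and EPCAM between lines at 1.37 to 1.70, -1.06 to -0.69 and -3.70 to -3.41, all called, and none reversed. Members called for ID1 siRNA in H1650 went from 1 to 0 without the intensity trend. With 1 stimulated array left out, the siRNA and the EGF against nicotine differences in its line rest on 1 pair each. No spread of that line is left, so calls in that line cannot be read from such a fit. At 1.5-fold in place of 2-fold, 4 of 12 pairs of arrays gained members. All siRNA calls in A549 went from 3161 to 4914 with that centring, 1747 with the mean of all probe sets, 2702 without a filter and 1394 without the trend, and in H1650 from 1540 to 592, 1149 and 1 with the latter 3. With 1 array left out these counts were 1452 to 3598 and 981 to 1862. Calls for the difference between lines went from 1490 to 2432 with centring, 957 with line alone as the block, 636 with the mean of probe sets and 199 without the trend, and to 878 at the lowest with 1 array left out. For EGF against nicotine, 4 genes were called in A549 and 0 to 216 over the alternatives, and 27 in H1650 and 0 to 266. Signals below the array median limit what CLDN4, CLDN7, RAB25, ESRP1 and GRHL2 can show in A549.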
